A study of Mus musculus with 14 samples.

Results

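Bone mineral forms where phosphate is released faster than its inhibitor pyrophosphate accumulates, and the 10 genes described here encode enzymes, a transporter and matrix proteins of that process. They were chosen by name: Alpl, Phospho1, Smpd3, Enpp1, Ank, Bglap, Bglap2, Ibsp, Spp1 and Sparc. All 10 were found among the 55427 genes of the deposited expression table, and all 10 passed the low-count filter that left 17358 genes for testing. Bulk RNA-seq was made from 14 clones, each grown from a single tdTomato+ bone marrow cell of a mouse femur. The 5 Fgfr3-WT (P23) clones carried Fgfr3-creER and R26R(tdTomato/+) and came from mice at postnatal day 23. The 5 Fgfr3-p53 cKO (P28) clones and the 4 Fgfr3-p53 cKO (P4M) clones carried in addition Trp53fl/fl, with both floxed alleles of the p53 gene, and were isolated at day 28 and at 4 months. All mice, controls included, had received tamoxifen at day 21, so that the reporter and, in cKO mice, the deletion mark cells that expressed the Fgfr3-creER transgene, a PAC line, at that age and their descendants. The labels give passage 8 for the Fgfr3-WT and P28 clones and passages 6 to 8 for the P4M clones, while the study's methods give passages 6 to 8 for all cKO clones, and no label states which mouse a clone came from. Clones are numbered within a group in the order of deposit, and the numbers pair nothing. As the mouse of each clone is unknown, the p values below measure the spread between these clones only.

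In mineralizing osteoblasts, matrix vesicles bud from the cell membrane and take up calcium and phosphate. PHOSPHO1 frees phosphate inside the vesicle from phospholipid head groups that sphingomyelinases such as SMPD3 supply, and tissue-nonspecific alkaline phosphatase, the product of Alpl, splits pyrophosphate outside it. ENPP1 makes pyrophosphate from ATP, and ANK, a multipass membrane protein, brings pyrophosphate or its precursor ATP out of the cell. Osteocalcin (Bglap, Bglap2), bone sialoprotein (Ibsp), osteopontin (Spp1) and osteonectin (Sparc) are secreted proteins of the mineralizing matrix that bind calcium, mineral or collagen.

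Libraries held 25688946 to 38958693 counts in Fgfr3-WT, 37606033 to 48648618 in P28 and 43757832 to 52857424 in P4M clones. Trp53 was at 49.9 to 68.2 CPM (counts-per-million, scaled between libraries by TMM) in the 5 Fgfr3-WT clones and at 1.72 to 2.84 CPM in the 9 cKO clones, as the labels give the deletion. The titles of all Fgfr3-WT samples carry the number 1303 and those of all cKO samples the number 2963. The labels do not say what the number marks, so genotype and whatever it stands for cannot be told apart, and only P4M against P28 lies within 1 number. Age at isolation also differs between all groups, and the labelled passage between P4M and P28. Neither can be told apart from the group in any comparison, P4M against P28 included. As the RNA is that of a whole culture, more cells that express a gene and more RNA per cell cannot be told apart either. The labels call the cells skeletal cells of the bone marrow. The summed level of 6 osteoblast markers (Runx2, Sp7, Dlx5, Col1a1, Col1a2, Ifitm5) was 19.4 to 59.2 TPM (transcripts-per-million, which account for length) in Fgfr3-WT clones 1 to 4, 1540 TPM in Fgfr3-WT clone 5, 7510 to 12900 TPM in P28 and 4170 to 22000 TPM in P4M clones. Most of the sum in cKO clones and in Fgfr3-WT clone 5 was Col1a1 and Col1a2, with means of 5620 and 5230 TPM over the 9 cKO clones. The sum of 7 chondrocyte markers ran the other way, from 222 to 5800 TPM in Fgfr3-WT through 74.1 to 714 TPM in P28 to 9.87 to 17.6 TPM in P4M clones. Col2a1 had the highest mean of them in Fgfr3-WT (1870 TPM). Matn3 and Comp had higher means in P28 than in Fgfr3-WT (1.36 against 0.25 CPM and 136 against 53.9 CPM). The macrophage and osteoclast list was at 150 to 401, 50.5 to 150 and 24.9 to 242 TPM, most of it Ctsk, while the leukocyte gene Ptprc was at 0 to 0.07 TPM in all clones. The 5 reticular markers summed to 2.97 to 186, 260 to 425 and 79.4 to 289 TPM, with 1 of them at 0 in every Fgfr3-WT clone. The 4 endothelial markers summed to 3.25 TPM at most, and Cdh5 was at 0 in all 14 clones.

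The sequences that matter most for reading the values are those of the osteocalcin genes, since mouse carries near-identical copies side by side. In GRCm38 (mm10) with GENCODE M21, Bglap lies at chr3:88383501-88384464 and Bglap2 at chr3:88377736-88378699, both on the minus strand with 4801 bases between them, and another copy, Bglap3, follows at chr3:88368616-88372743. The 2 coding sequences below, without the stop codon, are given from the first base of the start codon, with the bases that differ in capitals.
Bglap: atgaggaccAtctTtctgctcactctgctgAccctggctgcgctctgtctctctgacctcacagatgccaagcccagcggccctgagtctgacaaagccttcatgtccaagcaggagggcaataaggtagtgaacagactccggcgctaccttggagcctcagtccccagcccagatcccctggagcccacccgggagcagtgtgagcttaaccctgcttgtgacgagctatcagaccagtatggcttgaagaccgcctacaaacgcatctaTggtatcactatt
Bglap2: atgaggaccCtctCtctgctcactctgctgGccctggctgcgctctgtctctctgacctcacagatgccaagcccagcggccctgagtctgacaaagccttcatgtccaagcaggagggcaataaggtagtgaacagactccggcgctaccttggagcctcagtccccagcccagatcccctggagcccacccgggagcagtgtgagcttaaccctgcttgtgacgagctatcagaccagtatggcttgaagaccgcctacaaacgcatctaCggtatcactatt
They share 98.6% of 285 bases. The 4 differences, counted from the start codon with the Bglap base first, are A10C, T14C, A31G and T273C, and the longest stretch without one is 241 bases. A 50-base read from inside that stretch matches both genes equally, and the authors describe counting non-ambiguous reads alone. Over all annotated transcripts, 56.6% of the 569 windows of 50 bases in Bglap and 88.2% of the 422 in Bglap2 also occur in another gene, so the counts of both rest on the part of their sequence that is their own.

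Of the other members, Phospho1 has the largest shared part. Annotated transcripts of its neighbours Zfp652 and Abi3 run over it, and 85.4% of its windows occur in them as well. Those genes reached 17.2 and 4.31 TPM at most. Phospho1 was at 6.75 to 15.5 TPM in Fgfr3-WT, 25.1 to 183 TPM in P28 and 223 to 967 TPM in P4M clones. In Fgfr3-WT clones Phospho1 thus stayed below the highest level of Zfp652. How far reads of the neighbours add to the Phospho1 values, and so to its fold changes, was not tested. The libraries do not mark strand, and part of the reads may have been set aside as ambiguous. For Spp1 11.6% of windows occur in Gm42793, which overlaps it on the same strand and reached 8.74 TPM, and for Smpd3 4.15% are shared. Alpl and Ibsp shared none, and Sparc, Ank and Enpp1 shared under 1%.

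RUNX2, the master transcription factor of osteoblasts, binds the letters TGTGGT, read on either strand (ACCACA). The 250 bases before the start site, from RefSeq on GRCm38.p6, could be matched for 8 of the 10 members at 10 starts, and 3 of these held the letters, against 14% of 32851 mouse promoter windows of the same length. The 3 windows are printed here with the letters in capitals, on the gene's own strand and ending at the base before the start, because they belong to genes that differed between the groups in opposite directions.
Bglap, chr3:88384467-88384716 (minus strand): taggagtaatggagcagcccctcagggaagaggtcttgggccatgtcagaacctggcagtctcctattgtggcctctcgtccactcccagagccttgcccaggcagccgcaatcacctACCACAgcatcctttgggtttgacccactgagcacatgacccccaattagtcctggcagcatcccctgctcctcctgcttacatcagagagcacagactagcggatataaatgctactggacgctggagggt
Spp1, chr5:104434861-104435110 (plus strand): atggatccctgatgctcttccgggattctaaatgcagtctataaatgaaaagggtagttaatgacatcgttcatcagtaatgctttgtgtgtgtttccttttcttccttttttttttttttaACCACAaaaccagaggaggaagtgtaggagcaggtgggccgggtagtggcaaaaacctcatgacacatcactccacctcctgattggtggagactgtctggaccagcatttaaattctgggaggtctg
Enpp1, chr10:24712160-24712409 (minus strand): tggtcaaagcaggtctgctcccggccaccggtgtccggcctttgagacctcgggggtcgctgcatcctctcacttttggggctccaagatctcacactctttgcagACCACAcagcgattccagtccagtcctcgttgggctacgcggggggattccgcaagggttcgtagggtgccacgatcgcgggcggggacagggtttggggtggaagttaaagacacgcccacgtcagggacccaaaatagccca
The letters begin at position -132 in Bglap, -128 in Spp1 and -144 in Enpp1, with -1 as the last base before the start. The homeodomain letters TAATTA, which read the same on both strands, were found at 1 of the 10 starts, the second start of Spp1, against 4.84% of all windows. A match of 6 letters describes the window and does not by itself show binding, which was not tested.

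In all cKO clones against Fgfr3-WT, 6 of the 10 genes passed the test (edgeR quasi-likelihood, Benjamini-Hochberg adjusted over 17358 genes, adjusted p under 0.05). Alpl, Phospho1, Smpd3 and Bglap rose and Enpp1 and Spp1 fell, while Bglap2, Ibsp, Ank and Sparc did not pass. The background is wide: 23.1% of all tested genes were called higher in cKO and 25.7% lower. The median log2 fold change was 3.26 over the members and -0.05 over all tested genes. P28 against Fgfr3-WT gave 3 higher and 2 lower members, where 19.2% and 19.7% of all genes were called. P4M against Fgfr3-WT gave 4 higher and 2 lower, where the shares were 22.3% and 23.6%. These comparisons share the Fgfr3-WT clones and their member medians were 1.98 and 4.55 on the log2 scale, with -0.02 and -0.06 over all genes. Between P4M and P28, Ank and Phospho1 rose and none fell (at an unadjusted p under 0.05, 4 members differed, all higher in P4M), with 3.34% of all genes called higher, 3.88% called lower and a member median of 2.06 against -0.01. The share of all genes at that unadjusted p is not given here. A test for any difference among the 3 groups called 7 of the 10, where it called 50.6% of all genes.

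**Figure D1:**
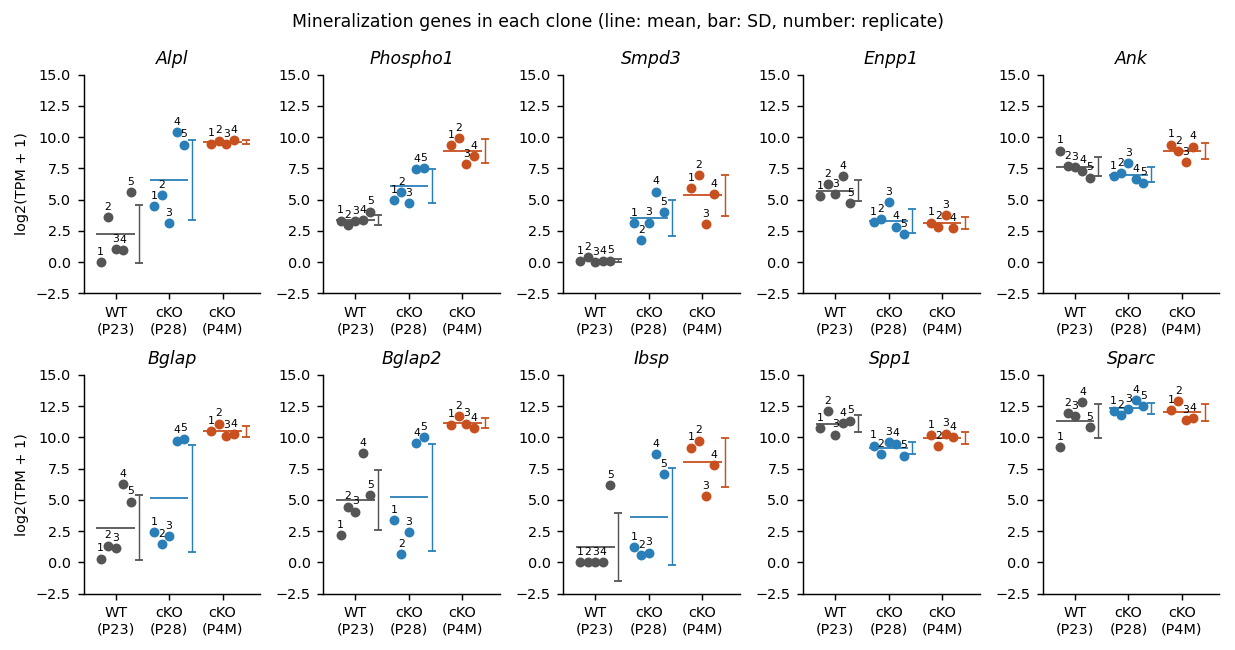
Level of each of the 10 genes as log2(TPM + 1) on the vertical axis in the 5 Fgfr3-WT (P23, grey), 5 Fgfr3-p53 cKO (P28, blue) and 4 Fgfr3-p53 cKO (P4M, orange) clones, with numbered points for clones, lines for group means and bars for the SD. Alpl, Bglap, Bglap2 and Ibsp are high in P28 clones 4 and 5 and in the 4 P4M clones and low in P28 clones 1 to 3, whereas Smpd3 and Phospho1 lie higher, and Enpp1 in CPM lower, in every cKO clone than in every Fgfr3-WT clone.

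Alpl (chr4:137741733-137796384, minus strand) encodes the phosphatase that removes pyrophosphate, and it ranged from no count in 1 clone to among the abundant members in others. In Fgfr3-WT clones 1 to 5 it was at 0, 19.1, 1.78, 1.88 and 78.4 CPM, where 3 counts in clone 1 would have given 0.0977 CPM. In P28 clones 1 to 5 it was at 30.5, 57.9, 10.5, 1858 and 916 CPM. In P4M clones 1 to 4 it was at 1126, 1379, 1103 and 1345 CPM. The P4M clones thus lay close together and far above every Fgfr3-WT clone, whereas P28 clones 1 to 3 lay within the Fgfr3-WT range and P28 clones 4 and 5 on either side of the P4M range. All cKO clones against Fgfr3-WT gave a log2 fold change of 5.38 ± 1.68 (SE, edgeR adjusted p = 0.0175), a 41.8-fold rise, and P4M against Fgfr3-WT gave 5.94 ± 1.80 (edgeR adjusted p = 0.0161). Both calls held whichever clone was removed from the fit, with estimates of up to 7.22 and 7.77 without Fgfr3-WT clone 5. The P28 estimate of 4.83 ± 1.68 (edgeR adjusted p = 0.0363) did not hold to the same extent. It lost its call without Fgfr3-WT clone 2, 3 or 4 (edgeR adjusted p = 0.07, 0.0671 and 0.0688) and without P28 clone 4 or 5 (edgeR adjusted p = 0.0937 and 0.061), and it ranged from 3.65 without P28 clone 4 to 6.66 without Fgfr3-WT clone 5. P4M against P28 was not called for Alpl (log2 fold change 1.11 ± 1.52, edgeR adjusted p = 0.69).

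Phospho1 (chr11:95824499-95832140, plus strand), the phosphatase of the vesicle interior, was called in each of the 4 comparisons. It was at 5.31, 5.59, 7.24, 9.36 and 10.7 CPM in Fgfr3-WT, at 19.7, 29.6, 17.6, 117 and 119 CPM in P28 and at 468, 751, 161 and 226 CPM in P4M clones. No range overlapped another. All cKO were apart from all Fgfr3-WT clones in 3 members (Phospho1 and Smpd3 higher, Enpp1 lower), and in 18.1% of all tested genes. The log2 fold change was 2.98 ± 0.625 in P28 (edgeR adjusted p = 0.00248) and 5.72 ± 0.717 in P4M (edgeR adjusted p = 8.32e-05) against Fgfr3-WT. P4M exceeded P28 by 2.73 ± 0.632 (edgeR adjusted p = 0.0235), which is 6.64-fold. That last call was lost without P28 clone 1 or 3 (edgeR adjusted p = 0.0553 and 0.0541) and without P4M clone 1 or 2 (edgeR adjusted p = 0.0576 and 0.0719), with estimates from 2.24 to 3.15 over all 14 fits. The calls against Fgfr3-WT held in all 14.

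Smpd3 (chr8:106252548-106337988, minus strand) encodes neutral sphingomyelinase 2, whose loss in mice impairs mineralization of the skeleton. It was nearly absent from Fgfr3-WT clones, at 0.261, 0.918, 0.0404, 0.114 and 0.317 CPM, from 1 to 24 counts a library. P28 clones had 22.4, 7.1, 22.1, 140 and 41.8 CPM, and P4M clones 194, 411, 24 and 136 CPM. Every cKO clone lay above every Fgfr3-WT clone, the lowest of them being P28 clone 2, and P28 and P4M overlapped. The log2 fold change of all cKO against Fgfr3-WT was 8.17 ± 1.11 (edgeR adjusted p = 9.12e-05), the largest of the 10 members in that comparison. It was 7.16 ± 1.09 in P28 (edgeR adjusted p = 0.000365) and 9.19 ± 1.18 in P4M (edgeR adjusted p = 9.82e-05). Without Fgfr3-WT clone 2 these became 8.99, 7.98 and 10.01, the P28 value fell to 6.13 without P28 clone 4 and the P4M value to 8.5 without P4M clone 2, and no call was lost in 14 fits. P4M against P28 was not called (2.03 ± 0.853, edgeR adjusted p = 0.152). The low counts in Fgfr3-WT leave the size of these folds less certain than their direction.

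Enpp1 (chr10:24637914-24712159, minus strand), the source of extracellular pyrophosphate, moved the other way. Fgfr3-WT clones had 161, 349, 184, 579 and 99.3 CPM. P28 clones had 24.3, 28.6, 83.3, 17.8 and 9.86 CPM and P4M clones 28.1, 22.1, 43.2 and 17.8 CPM. The highest cKO clone, P28 clone 3, lay just below the lowest Fgfr3-WT clone, number 5, and in TPM just above it (26.9 against 25.2). The log2 fold change was -3.18 ± 0.494 in all cKO (edgeR adjusted p = 0.000217), a 9.09-fold fall, with -3.07 ± 0.607 in P28 and -3.30 ± 0.672 in P4M (edgeR adjusted p = 0.00179 and 0.00165). Every one of the 14 fits kept these calls. The P28 estimate ranged from -3.79 without P28 clone 3 to -2.60 without Fgfr3-WT clone 4. P4M and P28 did not differ by the test (-0.24 ± 0.598, edgeR adjusted p = 0.844).

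Ank (chr15:27466677-27594909, plus strand), the gene of progressive ankylosis in mice, differed between the cKO groups rather than between genotypes. Fgfr3-WT clones were at 1057, 468, 432, 411 and 238 CPM, P28 clones at 224, 277, 447, 183 and 150 CPM and P4M clones at 1463, 1027, 554 and 1284 CPM. All P4M clones lay above all P28 clones, and the Fgfr3-WT clones overlapped with both. P4M exceeded P28 by 2.08 ± 0.430 on the log2 scale (edgeR adjusted p = 0.0152), a 4.22-fold difference that stayed called in all 14 fits without 1 clone, with an adjusted p of up to 0.0458. Against Fgfr3-WT, P28 gave -1.02 ± 0.404 (edgeR adjusted p = 0.0594) and P4M 1.05 ± 0.423 (edgeR adjusted p = 0.0562). Those missed the threshold by little. P28 passed without Fgfr3-WT clone 5 or P28 clone 3 (edgeR adjusted p = 0.0271 and 0.0218), and P4M passed without Fgfr3-WT clone 1, P28 clone 3 or P4M clone 3 (edgeR adjusted p = 0.00624, 0.0425 and 0.0305). DESeq2 called both (adjusted p = 0.0426 and 0.0356). Over all cKO clones, where the 2 directions cancel, the estimate was 0.01 ± 0.354.

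The balance between the phosphatase and the genes that supply its substrate can be read within a clone from TPM, which are corrected for length. Alpl over Enpp1 was 0, 0.151, 0.0253, 0.00816 and 1.9 in Fgfr3-WT clones, 2.62, 4.05, 0.287, 220 and 183 in P28 clones and 89.8, 137, 54 and 153 in P4M clones. Enpp1 was thus the more abundant RNA in Fgfr3-WT clones 1 to 4 and in P28 clone 3, and Alpl in the rest. Alpl over Ank was 0, 0.0559, 0.00564, 0.00607 and 0.448 in Fgfr3-WT, 0.184, 0.284, 0.0323, 13.7 and 8.37 in P28 and 1.05, 1.83, 2.67 and 1.42 in P4M clones. Here P28 clones 4 and 5 exceeded the P4M clones, in which Ank was higher. The ratios are of RNA and were not tested, as both parts had been chosen for their known roles.

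**Figure D2:**
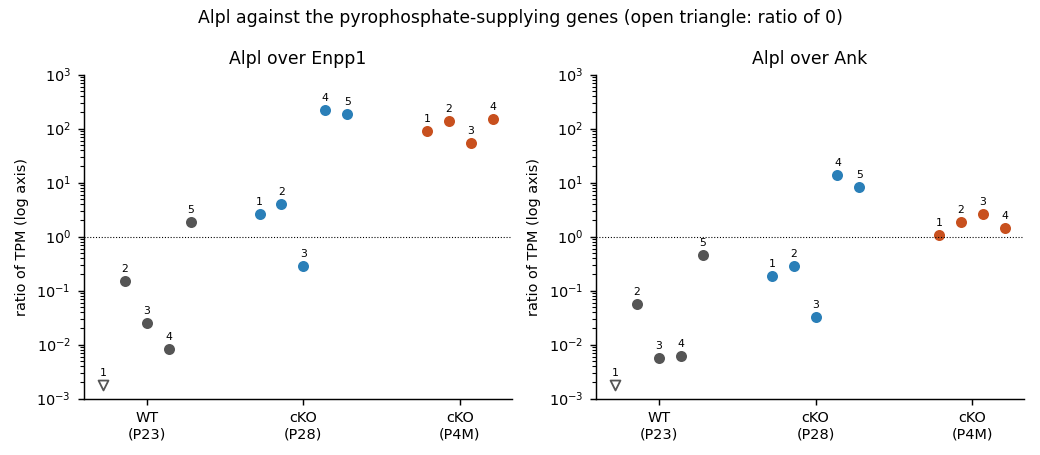
Ratio of Alpl TPM to Enpp1 TPM (left) and to Ank TPM (right) in each of the 14 clones on a log axis, with clone numbers above the points, a dotted line at 1 and an open triangle for the ratio of 0 in Fgfr3-WT clone 1. The Alpl to Enpp1 ratio is 54 or more in P28 clones 4 and 5 and in all P4M clones, and the Alpl to Ank ratio is above 1 in the same 6 clones only.

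Among the matrix proteins, the osteocalcin genes and Ibsp had the widest spread in P28. Bglap was at 0.0326, 0.23, 0.162, 12.7 and 3.72 CPM in Fgfr3-WT, at 0.495, 0.167, 0.378, 93.8 and 102 CPM in P28 and at 182, 290.1, 138 and 157 CPM in P4M clones. P28 clones 1 to 3 lay inside the Fgfr3-WT range, P28 clones 4 and 5 above it, and all P4M clones above all P28 clones. P4M against Fgfr3-WT gave 5.82 ± 1.90 on the log2 scale (edgeR adjusted p = 0.0235), a call kept in all 14 fits, with 7.54 without Fgfr3-WT clone 4. P28 gave 3.53 ± 1.69 against Fgfr3-WT (edgeR adjusted p = 0.114). For all cKO the estimate was 4.67 ± 1.72 (edgeR adjusted p = 0.0377), and this call was lost in 8 of the 14 fits without 1 clone, while removing Fgfr3-WT clone 4 gave 6.4 (edgeR adjusted p = 0.0216). Those 8 left out Fgfr3-WT clone 1, 2, 3 or 5 (edgeR adjusted p = 0.0614, 0.0751, 0.0718 and 0.0665), P28 clone 4 or 5 (0.0544 and 0.0548) or P4M clone 1 or 2 (0.0506 and 0.0543).

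Bglap2 was at 0.554, 3.37, 2.55, 82.7 and 6.45 CPM in Fgfr3-WT, at 1.29, 0.0717, 0.576, 95.9 and 134 CPM in P28 and at 312, 533, 322 and 263 CPM in P4M clones. The order of the clones was much as for Bglap, but Fgfr3-WT clone 4 came close to P28 clone 4. P4M against Fgfr3-WT gave 4.22 ± 1.76 (edgeR adjusted p = 0.0651), and passed without Fgfr3-WT clone 4 (6.79, edgeR adjusted p = 0.0131) or without P28 clone 2 (4.25, edgeR adjusted p = 0.0443). It also passed with DESeq2 (4.26, adjusted p = 0.0171), with only these groups in the fit (4.24, edgeR adjusted p = 0.0258) and with limma on log2(TPM + 1) (6.19, adjusted p = 0.0128) or log2(TPM + 0.1) (6.29, adjusted p = 0.0164). All cKO against Fgfr3-WT gave 2.75 ± 1.53 (edgeR adjusted p = 0.155) and passed without Fgfr3-WT clone 4 alone (5.32, edgeR adjusted p = 0.0245). P4M against P28 was not called for Bglap (2.29 ± 1.64, edgeR adjusted p = 0.405) or Bglap2 (2.95 ± 1.67, edgeR adjusted p = 0.284), although neither pair of ranges overlapped. Members without overlap between P4M and P28 were 4, all higher in P4M (Phospho1, Ank, Bglap, Bglap2), where 19% of all tested genes had ranges without overlap in either direction.

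The sum of Bglap, Bglap2 and Bglap3, which depends less on how reads are split between the copies, gave 4.61 ± 1.80 in P4M (edgeR adjusted p = 0.0507), 1.92 ± 1.58 in P28 (edgeR adjusted p = 0.357) and 3.26 ± 1.59 in all cKO (edgeR adjusted p = 0.105) against Fgfr3-WT. Bglap3 added little, with 1.39 CPM at most. The part that Bglap2 took of the reads of Bglap and Bglap2 was 94.4%, 93.6%, 94%, 86.7% and 63.4% in Fgfr3-WT clones 1 to 5. In P28 clones 1 to 5 it was 72.3%, 30%, 60.4%, 50.6% and 56.8%, and in P4M clones 1 to 4 it was 63.2%, 64.8%, 70% and 62.7%. Counted reads of Bglap2 thus outnumbered those of Bglap in 13 of the 14 clones, most strongly in Fgfr3-WT clones 1 to 4. In P28 clones 3 and 4 the exact 95% binomial intervals included equal shares (45.3 to 74.2% and 49.5 to 51.6%). In TPM, Bglap exceeded Bglap2 in P28 clone 4 (851.8 against 730.8). As the 2 genes differ in how much of their sequence is their own, the share does not show which RNA was more abundant. Several of these shares rest on few reads: the exact 95% binomial interval was 72.7 to 99.9% for 18 reads in Fgfr3-WT clone 1 and 6.67 to 65.2% for 10 reads in P28 clone 2, against 85.5 to 87.9% for 3352 reads in Fgfr3-WT clone 4. Such intervals cover counting error only, since amplified reads without molecular identifiers are not independent molecules.

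Ibsp (chr5:104299171-104311469, plus strand), a nucleator of hydroxyapatite, had no count in Fgfr3-WT clones 1 to 4, where 3 counts would have been 0.0854 to 0.121 CPM, and 92.9 CPM in Fgfr3-WT clone 5. P28 clones had 1.53, 0.55, 0.795, 445 and 148 CPM and P4M clones 733, 1124, 49.8 and 282 CPM. Fgfr3-WT clone 5, the clone with the highest osteoblast marker sum of its group, therefore lay above P28 clones 1 to 3 and P4M clone 3. With all clones no comparison was called (all cKO 3.78 ± 2.22, edgeR adjusted p = 0.175). Without Fgfr3-WT clone 5, all cKO, P28 and P4M were each called against Fgfr3-WT (edgeR adjusted p = 0.00854, 0.0151 and 0.00764). Set against the limit of 3 counts in each of the other 4 Fgfr3-WT libraries, the P28 mean is then at least 981-fold higher and the P4M mean at least 4510-fold higher. These bounds leave out the only Fgfr3-WT clone with Ibsp counts. The P28 mean rests on clones 4 and 5, whereas P28 clones 1 to 3 were at 0.55 to 1.53 CPM, far nearer to the limit. The other 13 fits without 1 clone called none of the comparisons.

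Spp1 (chr5:104435118-104441050, plus strand) lies 123.6 kb from Ibsp in the same cluster of acidic bone proteins, and its RNA went the opposite way to that of the phosphatases. It was at 1386, 3762, 998, 2254 and 2144 CPM in Fgfr3-WT, at 471, 301, 545, 508 and 258 CPM in P28 and at 948, 523, 1027 and 836 CPM in P4M clones. Every P28 clone lay below every Fgfr3-WT clone, and among P4M clones only number 3 exceeded the lowest Fgfr3-WT clone, number 3. Spp1 fell by 2.34 ± 0.352 on the log2 scale in P28 (edgeR adjusted p = 0.000318), a 5.06-fold difference. It fell by 1.34 ± 0.367 in P4M (edgeR adjusted p = 0.00959), a 2.53-fold difference. Both calls held in all 14 fits without 1 clone. P4M exceeded P28 2-fold, which did not pass (log2 fold change 1 ± 0.354, edgeR adjusted p = 0.0963) with the 3 groups in the fit and passed with the 2 groups alone (edgeR adjusted p = 0.0354). Osteopontin is also made by many cells outside bone, and it inhibits crystal growth in its phosphorylated form.

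Sparc (chr11:55394500-55423183, minus strand), the collagen-binding glycoprotein osteonectin, had the highest mean TPM of the 10 genes in each group and was called in no comparison. It was at 817, 5606, 4780, 11890 and 2584 CPM in Fgfr3-WT, at 5406, 4574, 5775, 9493 and 6997 CPM in P28 and at 6474, 10840, 3709 and 4040 CPM in P4M clones. The groups overlapped throughout, with Fgfr3-WT spanning both cKO groups. The log2 fold change of all cKO against Fgfr3-WT was 0.31 ± 0.477 (edgeR adjusted p = 0.618), and it ranged from 0.02 to 0.88 over the fits without 1 clone.

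**Figure D3:**
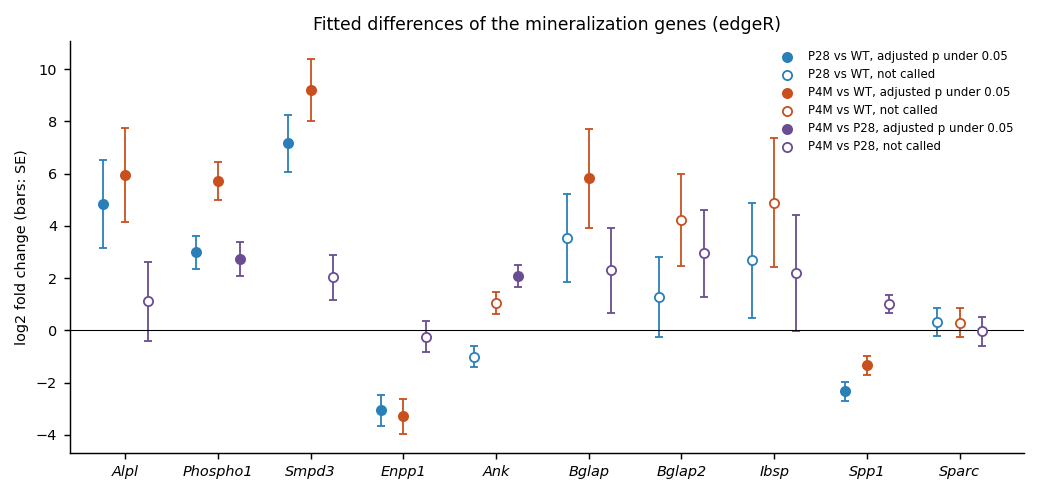
Fitted log2 fold change (points) with its SE (bars) of the 10 genes for P28 against Fgfr3-WT (blue), P4M against Fgfr3-WT (orange) and P4M against P28 (purple), filled where the edgeR adjusted p was under 0.05. Smpd3 has the largest rise against Fgfr3-WT (7.16 and 9.19), Enpp1 and Spp1 are the members that fell, and the bars of Alpl, Bglap, Bglap2 and Ibsp are the widest.

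Per unit of transcript length, the make-up of the set changed between the groups. In Fgfr3-WT the order of mean TPM was Sparc 3340 ± 2450 (SD, n = 5), Spp1 2430 ± 1220, Ank 228 ± 148, Bglap2 99.8 ± 179, Enpp1 59.6 ± 37.2, Bglap 21.3 ± 32.5, Ibsp 14.1 ± 31.6, Alpl 12.2 ± 20.5, Phospho1 9.88 ± 3.31 and Smpd3 0.106 ± 0.112. In P4M it was Sparc 4490 ± 2270 (SD, n = 4), Bglap2 2340 ± 721, Bglap 1500 ± 487, Spp1 1030 ± 283, Alpl 775 ± 85.9, Phospho1 548 ± 333, Ank 500 ± 184, Ibsp 424 ± 364, Smpd3 57.8 ± 48.3 and Enpp1 8.12 ± 3.27. Each neighbouring pair in the P4M order overlapped in range, and so did those of the Fgfr3-WT order apart from Spp1 and Ank and from Phospho1 and Smpd3. The Fgfr3-WT means of Bglap2, Bglap, Ibsp and Alpl rest largely on clone 4 or 5.

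The members varied more between clones of a group than most genes did. The median over the 10 of the SD of log2 CPM was 1.36 in Fgfr3-WT, 1.47 in P28 and 0.58 in P4M, against 0.51, 0.33 and 0.31 over all tested genes. In P28, 7 of the 10 lay above the 90th percentile of all genes by SD, against 4 in Fgfr3-WT and 3 in P4M. For Alpl the SD was 4.03 in Fgfr3-WT, 3.22 in P28 and 0.17 in P4M, which are the 99.6th, 99.6th and 24.8th percentiles. Bglap went from 4.43 in P28 to 0.47 in P4M and Bglap2 from 4.52 to 0.44. Ibsp (2), Smpd3 (1.74) and Phospho1 (1.01) stayed among the more variable genes in P4M, and all 3 were lowest in P4M clone 3. These are descriptions, as 4 or 5 clones give an SD with little precision.

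**Figure D4:**
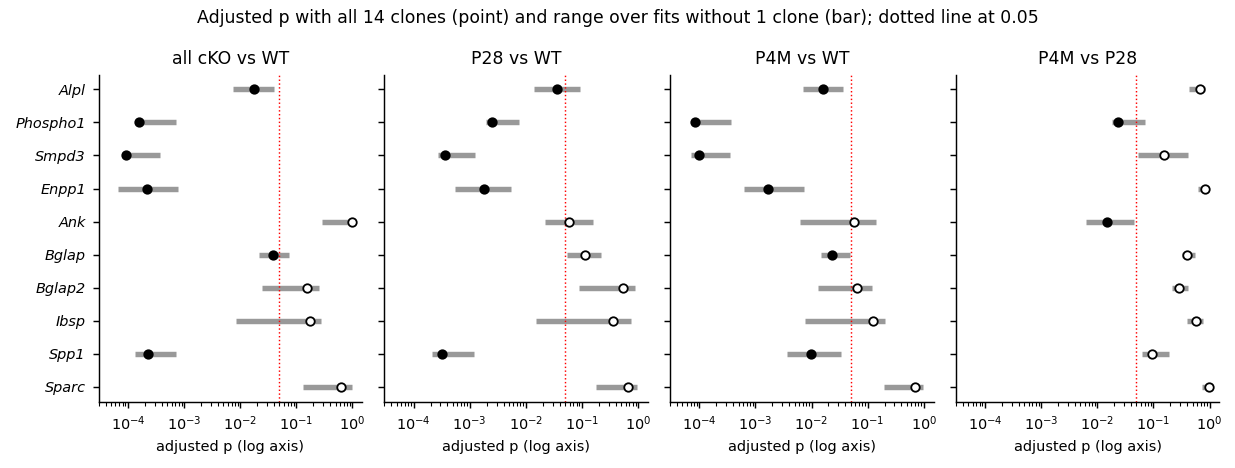
Adjusted p (edgeR, log axis) of the 10 genes in the 4 comparisons, with all 14 clones as points, filled where called, and with the range over the 14 fits that each left out 1 clone as grey bars, against a dotted line at 0.05. Phospho1, Smpd3, Enpp1 and Spp1 stay left of the line against Fgfr3-WT, while the bars of Bglap in all cKO, Alpl in P28 and Phospho1 in P4M against P28 cross it.

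A further 36 genes that handle mineral were listed from textbook knowledge, and 26 of them were tested. In all cKO against Fgfr3-WT 7 rose and 9 fell. The numbers were 5 and 11 in P28 and 7 and 8 in P4M, with shares of all genes as above, and the list as a whole had a median log2 fold change of -0.15, -0.48 and 0.11.

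Among genes of matrix vesicle lipids and calcium-binding annexins, Anxa2 (1.18), Anxa5 (0.54) and Anxa6 (1.17, log2 fold changes of all cKO against Fgfr3-WT) rose, while the other sphingomyelinases Smpd1 (-1.82) and Smpd2 (-1.16) fell where Smpd3 rose. Of 7 tested genes for pyrophosphate and nucleotides, Panx1, a channel that releases ATP, rose by 3.73 ± 1.01 (edgeR adjusted p = 0.00827), and Abcc6, whose loss lowers plasma pyrophosphate, fell by 4.42 ± 1.06 (edgeR adjusted p = 0.00406) from a mean of 0.84 CPM. Of 3 genes of phosphate transport, the exporter Xpr1 fell by 0.42. In vitamin K dependent carboxylation, the step that lets osteocalcin bind mineral, Vkorc1 fell by 2.37 ± 0.31 (edgeR adjusted p = 6.76e-05) and Ggcx by 0.43, and Mgp, a carboxylated inhibitor of calcification, rose by 2.82. Against Fgfr3-WT, Mgp was called in P28 (4.06, edgeR adjusted p = 0.00267) and not in P4M (1.59, edgeR adjusted p = 0.127). Xpr1 too was called in P28 and not in P4M, and Abcc6 in P4M and not in P28. The SPARC relatives Sparcl1 (-5.01), Smoc1 (-4.53) and Smoc2 (-2.73) all fell, unlike Sparc. None of the 3 alkaline phosphatase paralogs Alpi, Alppl2 and Akp3 passed the filter.

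Between P4M and P28, 4 of the 26 genes rose, where 3.34% of all genes were called higher and 3.88% lower, and the median over the list was 0.21. Among them were all 3 tested genes of the acidic glycoproteins and their enzymes: Dmp1, a gene of osteocytes, by 5.94 ± 1.13 (edgeR adjusted p = 0.0113), Phex, an osteocyte endopeptidase, by 3.86 ± 0.888 (edgeR adjusted p = 0.0233) and Fam20c, the kinase of these proteins, by 2.37 ± 0.383 (edgeR adjusted p = 0.00651). The phosphate importer Slc20a1 was the fourth gene called, at 1.62 ± 0.421 (edgeR adjusted p = 0.0357), and no gene of the list fell, with 9 genes at an unadjusted p under 0.05 in either direction and 9 called by DESeq2. For the unadjusted p and for DESeq2 the shares of all genes are not given here. Dmp1 was at 2.09, 0.478, 3.76, 0.886 and 0.922 CPM in P28 and at 88.1, 137, 1.72 and 175 CPM in P4M clones, so P4M clone 3 stayed within the P28 range. Phex showed the same clone apart, with 1.19 CPM in P4M clone 3 and 23.3, 45.7 and 14.1 CPM in the other P4M clones. Leaving out 1 clone took the number called from 4 to between 2 and 5, with 2 without P28 clone 1, P28 clone 4 or P4M clone 1. The shares of all genes called in those fits are not given here either. Against Fgfr3-WT, Dmp1 rose by 3.98 and Phex by 3.17 in all cKO, with rises of 6.95 and 5.1 in P4M and values of 1.01 and 1.24 in P28 that did not pass (edgeR adjusted p = 0.439 and 0.246). Fam20c and Slc20a1 were called lower in P28 than in Fgfr3-WT (-1.04 and -1.44, edgeR adjusted p = 0.0346 and 0.0126). In P4M, Fam20c was higher than in Fgfr3-WT (1.33, edgeR adjusted p = 0.011) and Slc20a1 did not differ by the test (0.17, edgeR adjusted p = 0.759).

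**Figure D5:**
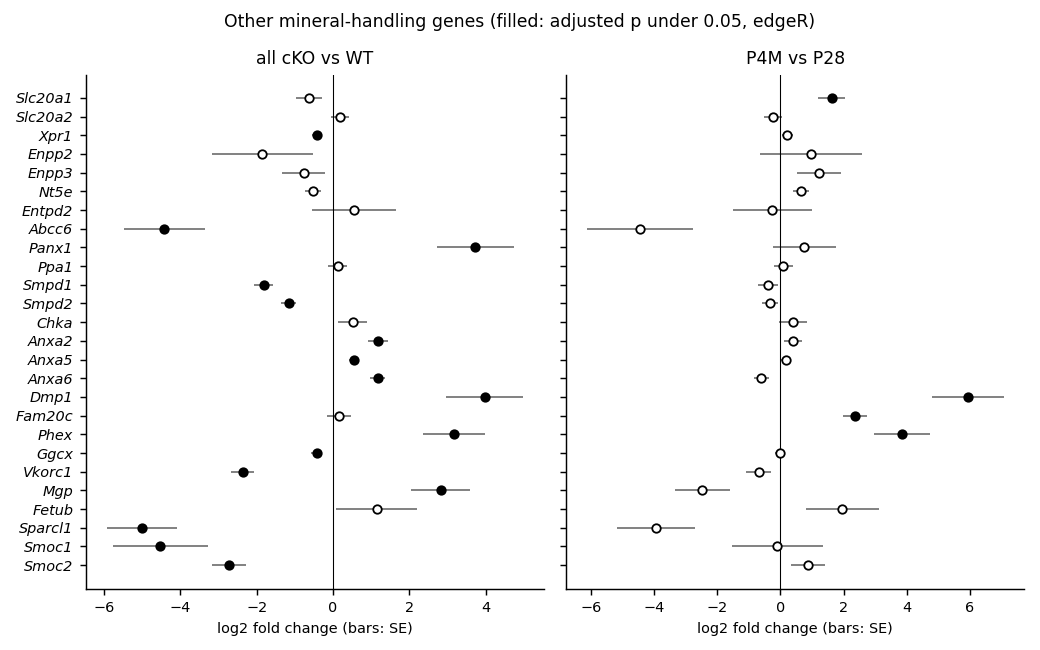
Log2 fold change (points) with SE (bars) of the 26 tested genes from the list of other mineral-handling genes, in all cKO against Fgfr3-WT (left) and P4M against P28 (right), filled where the edgeR adjusted p was under 0.05. In the left panel 7 genes rise and 9 fall, and in the right panel Dmp1, Phex, Fam20c and Slc20a1 rise and none is called lower.

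Regulators of osteoblasts give the setting of the members, and several of them had been picked by the study on these clones, so their direction is no independent evidence. Runx2 rose by 1.53, Sp7 by 4.83, Dlx5 by 1.77 and Col1a1, the main collagen of bone, by 6.47 on the log2 scale in all cKO against Fgfr3-WT, while Atf4 (0.30) and Col1a2 (4.32) did not pass. In P28, Col1a1 did not follow the clones in which Alpl, Bglap, Bglap2 and Ibsp were high. It was at 6206, 4023 and 5982 TPM in clones 1 to 3 and at 4288 and 5082 TPM in clones 4 and 5. In Fgfr3-WT the Col1a1 median was 1.79 TPM and the maximum 251 TPM. That maximum lay in clone 5, as the osteoblast marker sum, which includes Col1a1, was at most 59.2 TPM in the other clones. Sp7, the transcription factor osterix, was high in the same P28 clones as Alpl and Ibsp. It was at 1.98, 5.54 and 3.3 TPM in clones 1 to 3 and at 175.4 and 174.8 TPM in clones 4 and 5. In Fgfr3-WT, Sp7 was at 19.4 TPM in clone 5, the highest for Alpl and Ibsp, and at most 0.1 TPM in the other clones. Fgfr3-WT clone 4 went against this for osteocalcin: with Sp7 that low, it was the highest of its group for Bglap (75.57 TPM) and Bglap2 (418.7 TPM). In P4M against P28, Ifitm5, an osteoblast membrane protein, rose by 3.46 (edgeR adjusted p = 0.03). Of the marker lists, 5 of 7 chondrocyte genes (Acan, Col10a1, Col2a1, Col9a1, Sox9) fell in all cKO and 3 (Col10a1, Col2a1, Comp) fell in P4M against P28. In P28 against Fgfr3-WT, Matn3 rose (2.38 ± 0.799, edgeR adjusted p = 0.0304) and Comp did not pass (1.34 ± 1.15, edgeR adjusted p = 0.381). Ebf3, Lepr, Acp5, Csf1r and Kdr rose and Cd68 and Ctsk fell in all cKO. In P4M against Fgfr3-WT, Ebf3, Acp5 and Csf1r did not pass (edgeR adjusted p = 0.0759, 0.0581 and 0.109). Levels were low, with Csf1r means of 0.684 CPM in all cKO and 0.223 CPM in Fgfr3-WT. Acp5 had means of 3.36 CPM in P28 and 0.292 CPM in P4M. The part of any other cell state in the values of the members was not tested.

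The tested genes most like a member over the 14 clones, by Pearson's r of log2 CPM, are given as a description. The 14 points fall into the 3 groups, so a difference between groups adds to every r. For Ibsp they were Sp7 (0.97), Ildr2 (0.966) and Lifr (0.959), and for Alpl Irx5 (0.972), Lifr (0.952) and Foxq1 (0.951). Phospho1 went with Epha8 (0.989), Slc13a5 (0.976), a citrate transporter, and Rnf4 (0.973). Smpd3 went with Bmp2k (0.963), Syncrip (0.962) and Lpar3 (0.961), and Enpp1 with Mamld1 (0.956), Nucb1 (0.947) and Tm2d3 (0.946). The 2 osteocalcin genes had 2610300M13Rik in common (0.912 with Bglap and 0.886 with Bglap2), beside Ptprd (0.918) and Irx3 (0.904) for Bglap and Shox2 (0.928) and Sdc3 (0.926) for Bglap2.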

How the data were processed

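RNA of 14 cultured clones was sequenced. The authors made libraries with SMART-Seq v4, which does not mark strand, sequenced one end for 50 cycles, aligned to mm10 (TopHat, Bowtie2) and counted reads without ambiguous placement (HTSeq), and the versions are not given in the sources used here. The deposited counts are raw whole numbers for 30503 genes. The deposited TPM, for 55427 genes, were made by a program that the sources do not name. The authors' FPKM, expected count, depth-normalized and rlog tables were not used.

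Counts were tested in R 4.3.3 with edgeR 4.0.16 (filterByExpr, TMM, robust quasi-likelihood fit of all 14 clones, 3 groups) and called at an FDR of 0.05 after Benjamini-Hochberg adjustment over 17358 genes. Errors of fold changes are SEs. CPM are scaled by TMM, and a prior count of 2 was used for log2 CPM. A zero was limited by 3 counts per library, and shares have exact binomial intervals at 95%. Steps were tested on simulated data. Totals of 25688946 to 52857424 counts set the precision. Sequences and positions came from GENCODE M21 and RefSeq (Python 3.11.15). Alternatives were DESeq2 1.42.0, other scalings and filters, fits of only the groups compared, a minimum log2 fold change of 1, fits without each clone and limma 3.58.1 on TPM. No batch term could be fitted. The named genes are the 10 members, listed genes called in all cKO against Fgfr3-WT or in P4M against P28, Trp53, and the 3 genes most like each member whose highest group mean was at least 8 times the lowest. Members and lists were chosen with earlier results of these data known. Genes named for their levels beside the rule's (Ptprc, Cdh5 and the neighbours that overlap a member) were chosen after their values were seen. An item that the rule for named genes takes is not reported here.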

Additional observations from a re-analysis of the deposited data

Results flagged for a closer look

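Among the 30 sets of clones tested (10 genes in 3 groups), Ibsp in Fgfr3-WT stood out by 1 clone far from the others. Clone 5 had 92.9 CPM and the other 4 had 0, so its gap to the nearest clone was the whole range (a ratio of 1, where Dixon's critical value for 5 clones is 0.71). Normally distributed values pass the critical value in about 1 in 20 sets, and with 4 clones tied at 0 the ratio can only be 1, so that rate does not describe this gap. The same clone was the highest of its group for Alpl (78.4 CPM) and for the summed osteoblast markers (1540 TPM), and whether these share a source was not tested.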

How the results depend on the processing

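The alternatives left the direction of every member in every comparison as it was, apart from fits without 1 clone. Calls they changed are given here or beside the gene, and limma on TPM also called Ank in P4M (1.23 and 1.24, adjusted p = 0.0282 and 0.0267). With at least 10 counts in every clone, which drops members that are low in any clone from the test, members called numbered 3 in all cKO, 3 in P28 and 3 in P4M against Fgfr3-WT and 4 among the 3 groups, and other mineral-handling genes called numbered 10 in all cKO, 9 in P4M (with Fgfr3-WT as reference) and 2 between P4M and P28. The members that this filter leaves are Phospho1, Enpp1, Ank, Spp1 and Sparc, so the lower numbers come from fewer members tested. DESeq2 called 9 of the other mineral-handling genes in P4M against P28, and a minimum log2 fold change of 1 left 10 in P28. The shares of all genes called at these settings are not given here, so the counts have no background beside them. The osteocalcin sum passed with DESeq2 in all cKO (3.31, adjusted p = 0.0242), and in P4M against Fgfr3-WT with DESeq2 (4.65, adjusted p = 0.00795), RLE scaling (4.63, edgeR adjusted p = 0.0499), no scaling (4.71, edgeR adjusted p = 0.0458), 10 counts in every clone (4.61, edgeR adjusted p = 0.0435), only the groups compared (4.63, edgeR adjusted p = 0.0199) and limma on log2(TPM + 1) (6.65, adjusted p = 0.00993) or log2(TPM + 0.1) (6.74, adjusted p = 0.0104). Without a filter Bglap lost its call in all cKO (4.73, edgeR adjusted p = 0.0693) and Alpl in P28 (4.88, edgeR adjusted p = 0.0683), and Alpl in P28 also with only the groups compared (4.83, edgeR adjusted p = 0.076). On log2(TPM + 1), limma called Ibsp in all cKO (4.61, adjusted p = 0.0232) and in P4M (6.78, adjusted p = 0.00906), as it did on log2(TPM + 0.1) (6.95 and 9.43, adjusted p = 0.00855 and 0.00471). The median SD of the members in Fgfr3-WT was 1.1 on log2(TPM + 1), and the median log2 ratio of Alpl to Enpp1 in P4M was 5.64 in CPM. The causes were not tested.

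Without 1 clone at a time, members called ranged from 5 to 7 in all cKO, 4 to 7 in P28, 6 to 7 in P4M, 1 to 2 in P4M against P28 and 5 to 7 among the 3 groups. Other mineral-handling genes ranged from 2 to 5 in P4M against P28. The shares of all genes called in these fits are not given here, so the counts have no background beside them. The osteocalcin sum ranged from 2.87 to 5.67 in all cKO and from 4.31 to 7.01 in P4M, called in 1 and 4 fits, and the member SD in Fgfr3-WT from 1.16 to 1.39. Signs turned only in estimates that were not called: Ank in all cKO (-0.17 to 0.42), Enpp1 in P4M against P28 (-0.53 to 0.49), and Sparc in P4M against P28 (-0.44 to 0.16) and against Fgfr3-WT (-0.11 to 0.86). No paired analysis was possible because clone numbers only follow the order of deposit. A fit of only the groups compared gave no separate value for all cKO or for the 3 groups, since these use every clone. Depth limits Smpd3 and Ibsp in Fgfr3-WT, and with 4 or 5 clones a group, differences of the size of the spread within P28 could be missed.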
